A study of Homo sapiens with 6 samples.

Results

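Tubulins are the building blocks of microtubules, and 10 genes of this family were followed in A673 Ewing sarcoma cells made to express the lysyl oxidase propeptide (LOX-PP). They comprise the α-tubulins TUBA1A, TUBA1B, TUBA1C and TUBA4A and the β-tubulins TUBB, TUBB2A, TUBB2B, TUBB3, TUBB4B and TUBB6. Members were chosen by gene: every array probe whose transcript accession belongs to one of them was kept, and probes of one gene were never averaged. TUBA1A, TUBA1B and TUBA1C lie on chromosome 12, TUBA4A on chromosome 2, TUBB, TUBB2A and TUBB2B on chromosome 6, TUBB3 on chromosome 16, TUBB4B on chromosome 9 and TUBB6 on chromosome 18. This gave 16 probes for 10 genes, out of 50599 probes on the array and 20503 genes that could be named. All 16 probes were well above background on all 6 arrays and passed the filter on dim probes.

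Agilent 1-colour arrays were used for RNA of 3 separate experiments with each of A673/TR/empty cells (control) and A673/TR/LOX-PP cells, 6 arrays in all. A673 is an established Ewing sarcoma cell line, and TR stands for the tetracycline repressor that both groups express, which makes an inserted cDNA inducible by doxycycline. Control cells carry the empty lentiviral vector, A673/TR/LOX-PP cells carry the propeptide cDNA in the same vector, and stable clones of both were selected with zeocin. The labels give doxycycline (1 µM, 72 h) for all 6 samples, whereas the wording of the methods can be read as giving it to the A673/TR/LOX-PP cells alone, so treatment of the control cultures is not settled. The dose is not settled either, since the methods use 1 µg/ml to induce these cells. How many clones the arrays represent is not given in the sources used here, and a difference between clones and an effect of LOX-PP cannot be told apart.

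An α- and a β-tubulin form the heterodimer that polymerises into the microtubule wall. Human cells hold several genes for each chain, called isotypes, with closely related coding sequences and different tissue preferences. TUBA1B, TUBA1C, TUBB and TUBB4B are used by most dividing cells, TUBA1A, TUBB2A, TUBB2B and TUBB3 are abundant in neurons, and TUBA4A is prominent in platelets, muscle and mature nerve. Tubulin mRNAs are also subject to autoregulation, in which free tubulin dimers promote decay of the mRNA on the ribosome. Ewing sarcoma cells are of uncertain origin with neural features, and α-tubulin is a usual loading control for protein blots.

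The upstream sequences of 3 genes are shown, that of TUBA4A because its probes carried the clearest difference, and those of TUBB2A and TUBB2B because these neighbours on chromosome 6 code for almost the same protein while their probes gave unequal values. The windows are the 250 bases before an annotated start, from RefSeq on GRCh38.p14, printed 5′ to 3′ on the strand of the gene. They are TUBA4A at chr2:219253919-219254168 (minus strand), TUBB2A at chr6:3157545-3157794 (minus strand) and TUBB2B at chr6:3227654-3227903 (minus strand). Capitals mark 4 short motifs, searched on both strands. These are the TATA box with the letters TATAA, the GC box with the letters GGGCGG, the CCAAT box spelled as its name, and the core of a cAMP response element with the letters TGACG.
TUBA4A: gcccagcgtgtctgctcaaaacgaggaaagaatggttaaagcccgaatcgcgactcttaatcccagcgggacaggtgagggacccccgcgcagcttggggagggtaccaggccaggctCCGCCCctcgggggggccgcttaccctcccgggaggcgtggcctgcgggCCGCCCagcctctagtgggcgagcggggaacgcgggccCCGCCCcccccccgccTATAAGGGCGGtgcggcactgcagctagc
TUBB2A: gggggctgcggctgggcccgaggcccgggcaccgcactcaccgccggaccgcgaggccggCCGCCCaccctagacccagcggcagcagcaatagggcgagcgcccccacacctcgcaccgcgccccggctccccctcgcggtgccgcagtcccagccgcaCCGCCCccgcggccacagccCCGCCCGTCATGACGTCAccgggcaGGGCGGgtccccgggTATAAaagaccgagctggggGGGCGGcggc
TUBB2B: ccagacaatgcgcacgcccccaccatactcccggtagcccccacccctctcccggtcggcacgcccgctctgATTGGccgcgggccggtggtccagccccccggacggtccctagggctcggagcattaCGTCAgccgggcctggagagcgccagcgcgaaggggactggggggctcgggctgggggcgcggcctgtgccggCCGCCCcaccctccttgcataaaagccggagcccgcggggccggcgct

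The TUBA4A window held TATAA at 29 bases before the start, with a GC box directly after it and 3 more upstream. TUBB2A also held TATAA, at 30 bases before the start, and a palindromic stretch in which TGACG was matched on both strands. One of these matches shares a base with the GC box before it. TUBB2B held no TATAA in these letters, but it held a CCAAT box and a single TGACG. Of 15 tubulin windows, 5 held TATAA, against 18.9% of all 35116 windows of this length. GGGCGG was present in 9 of 15 (42.6% of all windows), CCAAT in 9 of 15 (32% of all) and TGACG in 4 of 15 (21.2% of all). Several tubulin genes contribute more than 1 window, some of which overlap, and a match to these letters is a description only.

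Values are log2 signals minus the 75th percentile of the array, called the level here. A level can be set against that of the same probe on another array, but not against that of another probe. Changes are LOX-PP minus empty, and an adjusted p under 0.05 (limma with Benjamini-Hochberg adjustment over all 32647 tested probes) was the threshold. The median change of all tested probes was 0.13 and became -0.03 under quantile normalization, so changes are also given relative to that median. Of the 32647 tested probes, 1849 (5.66%) passed the threshold, 1080 (3.31%) higher and 769 (2.36%) lower on the A673/TR/LOX-PP arrays.

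Before the results, replicate 1 of A673/TR/LOX-PP has to be described, because it stood apart. It lay alone on slide 2, and its mean correlation with the other arrays across probes was the lowest (0.947, against 0.959 to 0.968). Its 75th percentile was also the lowest, at 11.48 on the log2 scale. Replicate 3 of A673/TR/LOX-PP was low as well (11.70), whereas replicate 2 and the control arrays had 12.60 to 12.90. Between 56.9% and 74.8% of gene spots per array were well above background, and none was saturated. LOX, whose single probe checks the labels, had a level of 0.13 ± 0.22 (SD, n = 3) on control arrays and -0.70 ± 0.58 (SD, n = 3) on A673/TR/LOX-PP arrays (adjusted p = 0.217, limma). No rise in A673/TR/LOX-PP cells was thus seen with it. The files do not place this probe inside or outside the propeptide part of the transcript, so directions rest on the labels. All 10 genes of an Ewing sarcoma marker list (CD99, NKX2-2, NR0B1 and others) were above background on all arrays, at a mean level of 3.73 to 3.89 on control and 3.75 to 3.90 on A673/TR/LOX-PP arrays. Of its 14 probes, 1 was called higher (KDSR) and 1 lower (CCK), 14.3% in all, against 5.66% of all tested probes. The other KDSR probe had a relative change of 0.095 (adjusted p = 0.661, limma). NKX2-2 missed the threshold (adjusted p = 0.0782, limma) but passed it under quantile normalization (adjusted p = 0.0496).

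Among the 10 tubulin genes followed, only TUBA4A gave a call, and it was higher on A673/TR/LOX-PP arrays. Tubulins outside this set, TUBB8 and TUBA3C, also gave calls and are described below with the gene lists. After scaling, TUBA4A was higher on every A673/TR/LOX-PP array than on any control array with each of its 3 probes, by about 1.7 to 2.0-fold. Of these probes, 1 passed the threshold. That was the only call among the 16 tubulin probes, a share near the 5.66% called among all tested probes. At an unadjusted p under 0.05 there were 4 of 16 tubulin probes, against 21.3% of all tested probes. TUBB2B gave the most negative relative change of the members (-1.04), with groups that did not overlap, but it missed the threshold. Groups did not overlap for 3 tubulin probes that were higher (16.1% of all probes) and for 1 that was lower (13.4% of all probes), and they overlapped for 12.

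**Figure D1:**
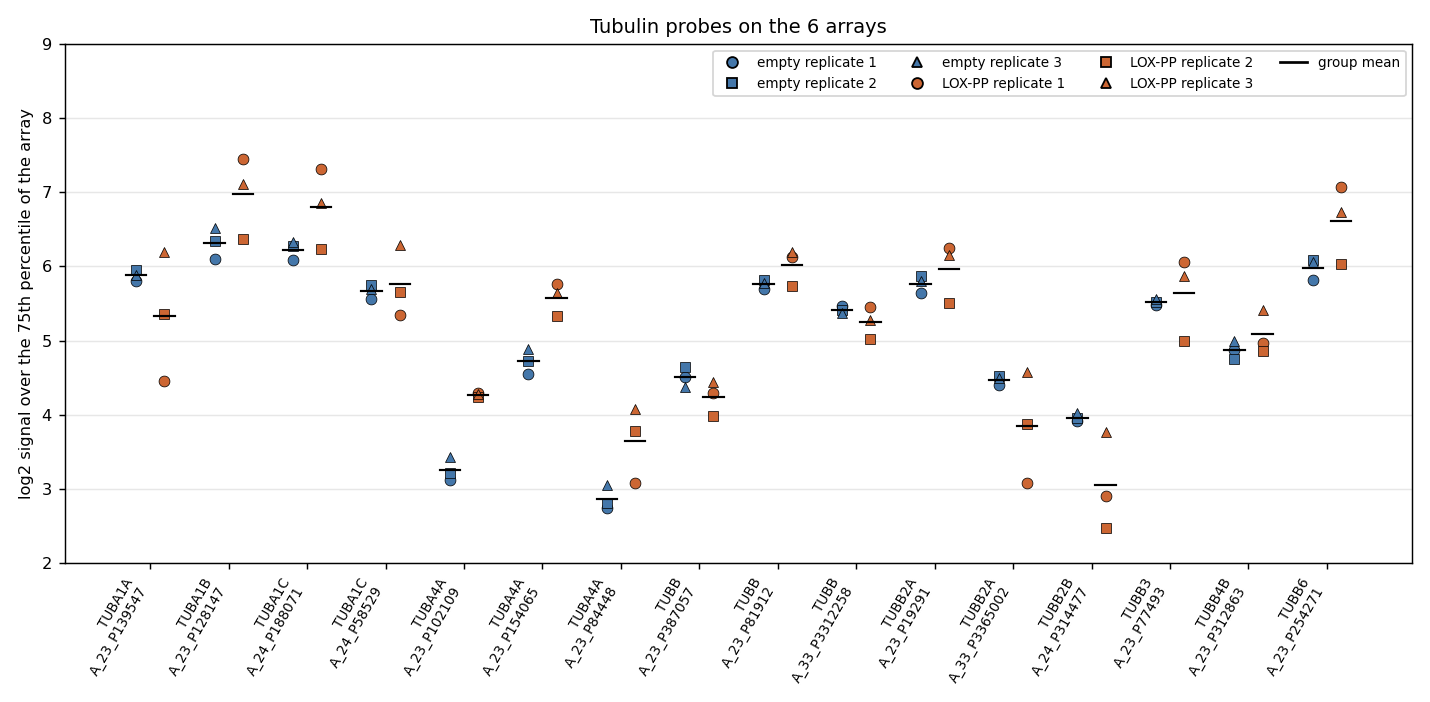
Level of each of the 16 tubulin probes on the 6 arrays, as log2 signal over the 75th percentile of the array (y axis), with control arrays in blue, A673/TR/LOX-PP arrays in orange, 1 symbol shape per replicate number and a bar at each group mean. Heights compare arrays within a probe and not different probes. The 3 TUBA4A probes have no overlap between the groups, and orange circles (A673/TR/LOX-PP replicate 1) often lie farthest from the blue points.

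TUBA4A codes for an α-tubulin that, unlike the other α-tubulins followed here, ends without the C-terminal tyrosine that tubulin modifying enzymes remove and restore. Its probe A_23_P102109 had levels of 3.12, 3.21 and 3.43 on control replicates 1 to 3 and of 4.29, 4.24 and 4.28 on A673/TR/LOX-PP replicates 1 to 3. All 3 A673/TR/LOX-PP arrays were above all 3 control arrays and lay closer to each other than the controls did. Before any scaling the groups overlapped, with log2 signals of 16.021, 15.829 and 16.025 on control and 15.764, 16.854 and 15.98 on A673/TR/LOX-PP arrays. The separation thus rests on the scaling of the arrays. The change was 1.02 (95% interval 0.54 to 1.49, SE 0.20), which is 2.02-fold, or 0.89 relative to all probes (adjusted p = 0.0357, limma). Under quantile normalization the relative change was 1.11 (adjusted p = 0.0244), with 5.79% of all tested probes called. The call was lost when any control array, or A673/TR/LOX-PP replicate 2 or 3, was left out, with adjusted p from 0.0695 to 0.211. The relative change without any 1 array stayed between 0.84 and 0.98. On slide 1 alone, that is without A673/TR/LOX-PP replicate 1, it was 0.84 with the call kept (adjusted p = 0.0437).

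The other TUBA4A probes gave similar sizes with more spread. A_23_P154065 had levels of 4.55, 4.72 and 4.89 on control arrays and 5.76, 5.33 and 5.65 on A673/TR/LOX-PP arrays, a change of 0.86 (SE 0.23, 1.81-fold, adjusted p = 0.0808, limma). A_23_P84448 had levels of 2.75, 2.81 and 3.06 on control arrays and 3.08, 3.78 and 4.08 on A673/TR/LOX-PP arrays, a change of 0.78 (SE 0.30, 1.71-fold, adjusted p = 0.201, limma). In the latter probe A673/TR/LOX-PP replicate 1 lay only just above control replicate 3. Without that replicate its relative change was 0.90 and it passed the threshold (adjusted p = 0.0468, limma). The 3 probes report 1 gene and are not independent of each other.

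TUBA4A lies on chromosome 2, where the annotation places STK16 across its 3′ end and GLB1L and DNAJB2 nearby. None of these neighbours passed the threshold. STK16, a protein kinase gene, had a relative change of -0.36 (adjusted p = 0.74, limma), and the probes of GLB1L and DNAJB2 lay between -0.28 and -0.04, all with overlapping groups. TUBA4B, which overlaps the start of TUBA4A, had no probe.

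The other α-tubulins gave no call, and their direction depended on the gene and on the scaling. TUBA1A, the main α-tubulin of young neurons, had levels of 5.81, 5.95 and 5.88 on control arrays and 4.46, 5.37 and 6.19 on A673/TR/LOX-PP arrays. The A673/TR/LOX-PP arrays thus lay on both sides of the controls, and the change was -0.54 (95% interval -1.55 to 0.47, adjusted p = 0.513, limma). Under quantile normalization the groups did not overlap and the relative change was -0.81 (adjusted p = 0.265).

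TUBA1B, which codes for a general α-tubulin of dividing cells, had levels of 6.10, 6.34 and 6.51 on control arrays and 7.46, 6.37 and 7.11 on A673/TR/LOX-PP arrays. Replicates 1 and 3 of A673/TR/LOX-PP were above all controls and replicate 2 was among them. The change was 0.66 (95% interval -0.10 to 1.42, adjusted p = 0.288, limma), 0.54 relative to all probes. Before any scaling, however, its log2 signal spanned only 0.30 over the 6 arrays (18.81 to 19.11), near that of the brightest spot of each array. The 75th percentile spanned from 11.48 to 12.90 and was lowest on replicates 1 and 3 of A673/TR/LOX-PP. Whether the narrow span comes from a limit at the top of the measured range was not tested. Under quantile normalization the relative change was -0.01 (adjusted p = 0.915).

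TUBA1C, another α-tubulin of proliferating cells, has 2 probes. Its probe A_24_P188071 followed TUBA1B, with levels of 6.08, 6.27 and 6.33 on control and 7.31, 6.23 and 6.86 on A673/TR/LOX-PP arrays, and a relative change of 0.45 that became -0.08 under quantile normalization. Its probe A_24_P58529 had levels of 5.56, 5.75 and 5.70 on control and 5.35, 5.65 and 6.29 on A673/TR/LOX-PP arrays, with a relative change of -0.03. Neither came near the threshold (adjusted p of 0.334 and 0.888, limma). On A673/TR/LOX-PP replicate 1 the first of these probes was higher and the second lower than on all control arrays. As for TUBA1B, the unscaled log2 signal of A_24_P188071 lay near the top of the measured range. It spanned only 0.42 over the 6 arrays (18.56 to 18.98), and whether a limit there plays a part was not tested.

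Of the β-tubulins, TUBB2B was lower, and the probes of the others had overlapping groups with the 75th percentile scaling. TUBB2B, a neuronal class II β-tubulin, had levels of 3.91, 3.95 and 4.03 on control arrays and 2.91, 2.48 and 3.77 on A673/TR/LOX-PP arrays. All 3 A673/TR/LOX-PP arrays were below the controls, replicate 3 by a small margin. The change was -0.91 (95% interval -1.73 to -0.10, SE 0.34, adjusted p = 0.19, limma), and it kept its sign under every alternative (relative change from -1.40 to -0.67) without passing the threshold in any (adjusted p from 0.0574 to 0.443). On slide 1 alone it was -1.002 (adjusted p = 0.233, limma).

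TUBB2A codes for the other class II β-tubulin, and its 2 probes did not move together. A_33_P3365002 had levels of 4.40, 4.52 and 4.50 on control and 3.09, 3.88 and 4.58 on A673/TR/LOX-PP arrays, a relative change of -0.75 (adjusted p = 0.392, limma). A_23_P19291 had levels of 5.64, 5.87 and 5.81 on control and 6.25, 5.51 and 6.15 on A673/TR/LOX-PP arrays, a relative change of 0.07 (adjusted p = 0.712, limma) that became -0.17 under quantile normalization. Probe sequences are not used here, so how far probes of near-identical isotypes such as TUBB2A and TUBB2B read each other's transcripts is not known.

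TUBB3, the class III β-tubulin used as a neuronal marker, had levels of 5.49, 5.52 and 5.57 on control arrays and 6.06, 4.996 and 5.88 on A673/TR/LOX-PP arrays. The controls lay between the A673/TR/LOX-PP arrays, and the change was 0.12 (95% interval -0.62 to 0.86, adjusted p = 0.861, limma). TUBB6, a widely expressed class V β-tubulin, had levels of 5.82, 6.09 and 6.05 on control arrays and 7.08, 6.03 and 6.74 on A673/TR/LOX-PP arrays, a relative change of 0.50 (adjusted p = 0.291, limma). As for TUBA1B, its unscaled log2 signal lay near the top of the measured range and spanned only 0.28 over the 6 arrays. The relative change of TUBB6 was 0.08 under quantile normalization.

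The class I gene TUBB, which supplies the main β-tubulin of most cell lines, had 3 probes with relative changes of -0.40, -0.29 and 0.13 (adjusted p from 0.535 to 0.702, limma). Over all 6 arrays the level of A_23_P387057 ran from 3.99 to 4.65, that of A_33_P3312258 from 5.02 to 5.46 and that of A_23_P81912 from 5.70 to 6.20. TUBB4B, a class IVb β-tubulin found in most tissues and in cilia, had a relative change of 0.08 (adjusted p = 0.658, limma) and levels from 4.76 to 5.42 over all 6 arrays. With the 75th percentile scaling the groups overlapped at every probe of both genes. Under quantile normalization TUBB A_33_P3312258 was lower on all 3 A673/TR/LOX-PP arrays than on any control array, with a change of -0.36.

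**Figure D2:**
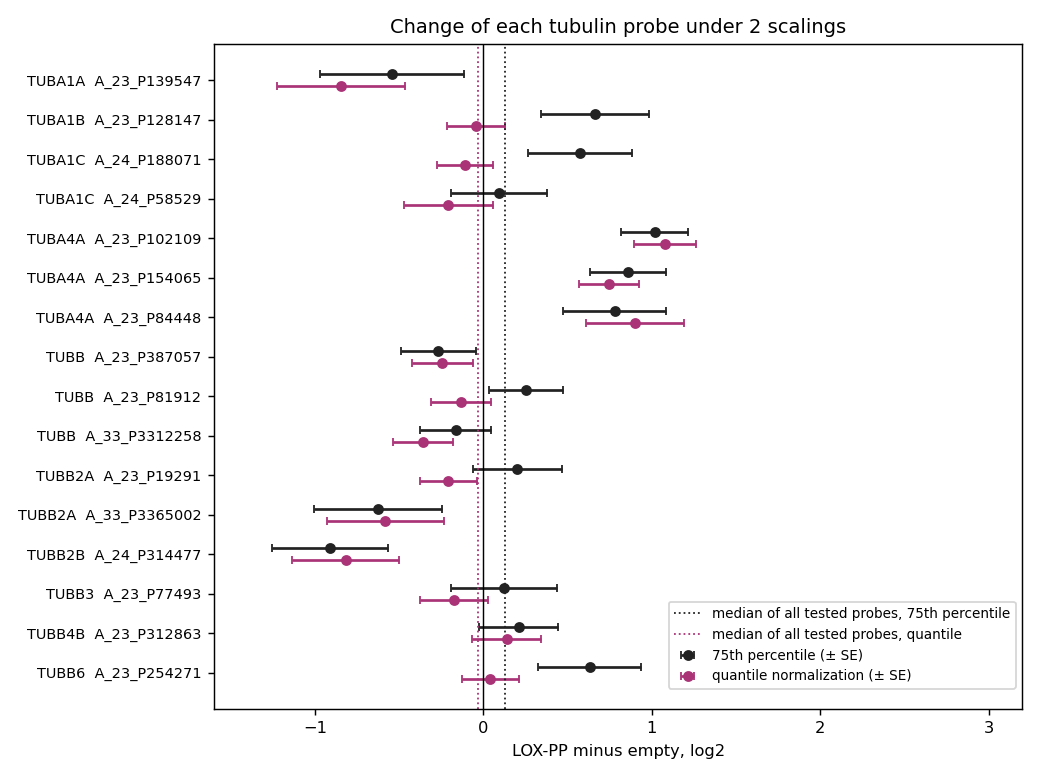
Change of each tubulin probe, LOX-PP minus empty on the log2 scale (x axis), with bars of ± SE from limma (3 arrays per group), after scaling to the 75th percentile (black) and after quantile normalization (purple). Dotted lines are the medians of all tested probes. The TUBA4A, TUBB2B and second TUBB2A probe have nearly the same place under both scalings, whereas TUBA1B, the first TUBA1C probe and TUBB6 move from about 0.6 to about 0.

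The sign of several members thus depended on the scaling. Relative changes were above 0 for 9 of 16 probes with the 75th percentile and for 5 of 16 with quantile normalization, and 4 probes changed sign. With quantile normalization the groups did not overlap for 3 probes that were higher (13.7% of all probes) and 5 that were lower (16.0% of all probes). The tubulins are bright, with 14 of the 16 probes in the brightest of 10 equal bins of tested probes and the other 2 in the next bin. Median changes over the bins ran from 0.39 in dim probes to -0.13 in brighter ones and were 0.08 in the brightest, with the 75th percentile, and from -0.13 to -0.01 with quantile normalization.

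Probes of 1 gene can be set against each other within an array without any scaling. In some pairs of probes this difference singled out A673/TR/LOX-PP replicate 1. For TUBA1C the difference between probes A_24_P188071 and A_24_P58529 was 0.52, 0.52 and 0.63 on control arrays and 1.97, 0.58 and 0.57 on A673/TR/LOX-PP arrays. For TUBB2A the difference between A_23_P19291 and A_33_P3365002 was 1.24, 1.34 and 1.303 on control arrays and 3.16, 1.63 and 1.57 on A673/TR/LOX-PP arrays. In both genes replicate 1 lay more than 1 log2 unit from all other arrays. The same was seen to a smaller extent for TUBA4A, where A_23_P154065 minus A_23_P84448 was 1.81, 1.91 and 1.83 on control arrays and 2.68, 1.55 and 1.56 on A673/TR/LOX-PP arrays. A_23_P154065 minus A_23_P102109, however, was 1.43, 1.505 and 1.47 on control arrays and 1.47, 1.09 and 1.37 on A673/TR/LOX-PP arrays. There replicate 2 lay lowest and replicate 1 was among the controls. In the TUBB pairs, described next, replicate 1 did not stand apart.

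In TUBB, 2 of the 3 probe differences were larger on all 3 A673/TR/LOX-PP arrays than on any control array. The same held for the TUBB2A difference given above. A_23_P81912 minus A_23_P387057 was 1.19, 1.18 and 1.40 on control arrays and 1.83, 1.75 and 1.76 on A673/TR/LOX-PP arrays. A_23_P81912 minus A_33_P3312258 was 0.24, 0.40 and 0.40 on control arrays and 0.68, 0.71 and 0.92 on A673/TR/LOX-PP arrays. The groups did not overlap in either, while the third difference, between A_33_P3312258 and A_23_P387057, had overlapping groups. The 2 TUBB differences without overlap both contain A_23_P81912 and are not independent of each other. These differences were not tested. The share of all genes with 2 probes whose difference does not overlap between the groups was not computed. Over 4308 genes with 2 probes, the median absolute deviation of the difference was 0.56 on A673/TR/LOX-PP replicate 1 and from 0.20 to 0.31 on the other arrays.

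**Figure D3:**
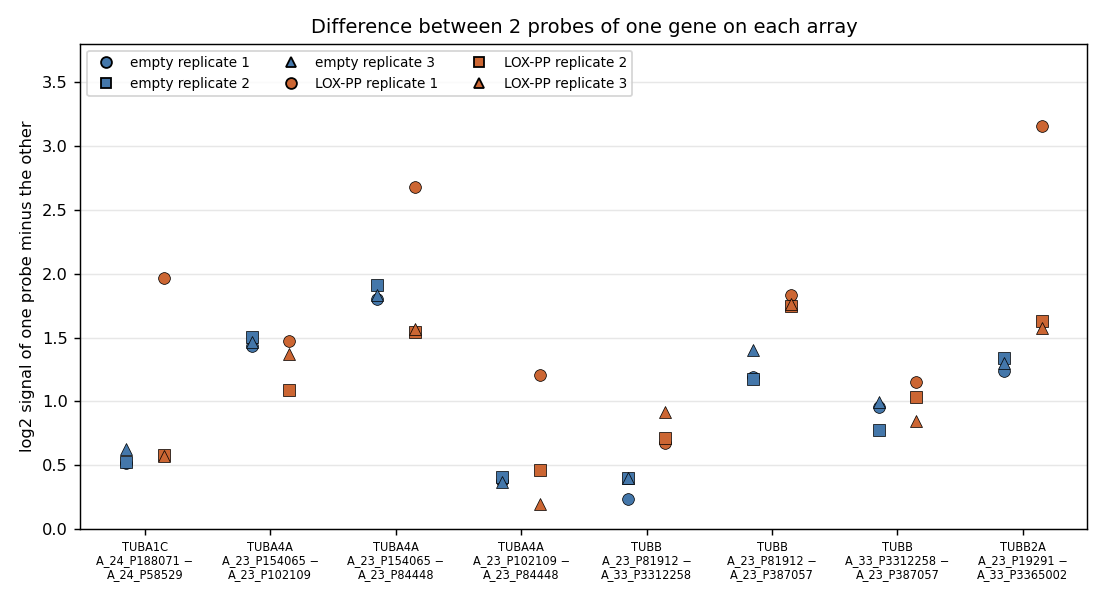
Difference in log2 signal between 2 probes of the same tubulin gene on each array (y axis), with control arrays in blue, A673/TR/LOX-PP arrays in orange and 1 symbol shape per replicate number. A673/TR/LOX-PP replicate 1 (orange circles) stands at 1.97 for TUBA1C and at 3.16 for TUBB2A, away from all other arrays. For TUBB2A and for the TUBB pairs with A_23_P81912 all 3 orange points lie above the blue ones. The share of all genes with such a difference was not computed.

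The genes that fold, nucleate, modify, bind and sever tubulin were then described by lists. Between them 17 probes of 12 genes passed the threshold, in both directions, and the chaperones that fold tubulin gave none. Among probes above background on all arrays, the largest rises were in STMN2 and TUBB8 and the largest fall in DCLK1. Shares are to be read against the 5.66% called among all tested probes. List medians use 1 probe per gene, the brightest, and are relative to the median of all tested probes. The median change also depended on brightness, however. It was -0.13 in one of the brighter bins given above, against 0.13 over all tested probes. A list median below 0 is thus not by itself a fall of the list. List medians depended on the scaling, so each is given with its value under quantile normalization.

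Of the folding cofactors and chaperones (the TBC cofactors, the CCT chaperonin and prefoldin), 0 of 27 tested probes of 23 genes were called (0.00%), with a median relative change of -0.16 (-0.11 under quantile normalization). At -1.36, CCT5, a chaperonin subunit, was nearest to the threshold (adjusted p = 0.0527, limma). It passed under quantile normalization (adjusted p = 0.0453).

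Of the other tubulins, 3 of 12 tested probes rose (25%) and none fell, with a median relative change of 0.24 (0.34 under quantile normalization). TUBB8, a β-tubulin known from the oocyte spindle, accounted for 2 of them. Its probe A_32_P16315 went from a mean level of -1.93 to 2.08, a relative change of 3.88 (adjusted p = 0.003, limma), and it stayed called without any 1 array. Its probe A_33_P3371333, above background on 2 of 3 control arrays, rose by 2.26 relative to all probes (adjusted p = 0.0121). The third probe, A_24_P813147, had a relative change of -0.34 (adjusted p = 0.726), so the probes of TUBB8 disagreed. TUBA3C, a testis α-tubulin, rose by 0.97 relative to all probes (adjusted p = 0.0344), while TUBA3D, whose protein is nearly the same, had 0.30 (adjusted p = 0.514). The TUBA3C call was kept in only 1 of the 6 fits that leave out an array.

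In the γ-tubulin ring complex and augmin list, which holds the machinery that nucleates microtubules, none of 19 tested probes rose and 3 fell (15.8%), with a median relative change of -0.39 (-0.17 under quantile normalization). Both probes of TUBGCP3, a core subunit of the ring complex, fell, by 1.23 and 1.31 relative to all probes (adjusted p of 0.0372 and 0.0387, limma). HAUS2, an augmin subunit, fell with 1 probe (-1.29, adjusted p = 0.0442), and its other probe had -0.58 (adjusted p = 0.274). These calls were fragile, since at most 1 of the 6 fits that leave out an array kept any of them.

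Of the tubulin modifying enzymes, 2 of 33 tested probes rose (6.06%), with a median relative change of -0.16 that became -0.005 under quantile normalization. VASH1, a carboxypeptidase that removes the C-terminal tyrosine of α-tubulin, went from a mean level of 0.85 to 2.44, a relative change of 1.47 (adjusted p = 0.00845, limma). TTLL6, a polyglutamylase, had a relative change of 1.61 (adjusted p = 0.0455). This TTLL6 probe was above background on only 1 of 3 control arrays, and no fit that leaves out an array kept the call. The other TTLL6 probe tested had 1.26 (adjusted p = 0.14, limma).

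Genes of microtubule binding and dynamics were called most often by number, 3 higher and 5 lower of 66 tested probes (12.1%), with a median relative change of -0.12 that turned to 0.04 under quantile normalization. STMN2, a stathmin that sequesters tubulin dimers, went from a mean level of -3.26 to 0.97 (relative change 4.11, adjusted p = 0.0238, limma). MAPT, which codes for the axonal protein tau, rose with 2 probes, by 1.92 and 1.45 relative to all probes (adjusted p of 0.0145 and 0.0347). The STMN2 call was kept in 3 of the 6 fits that leave out an array, and the MAPT calls in 3 and 2. In the opposite direction, MAP2, a dendritic microtubule protein, had a relative change of -2.87 (adjusted p = 0.00524), with 1 of 3 A673/TR/LOX-PP arrays above background.

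DCLK1, a doublecortin-like kinase, fell with 3 probes, with relative changes from -2.36 to -1.25 (adjusted p from 0.00862 to 0.0437, limma). These calls were kept in 4, 2 and 0 of the 6 fits that leave out an array, in the order of their adjusted p. MAP6, which stabilises microtubules, fell with 1 probe (-1.71, adjusted p = 0.0131, limma). That probe was above background on 2 of 3 control and 1 of 3 A673/TR/LOX-PP arrays. The other MAP6 probe had -0.66 (adjusted p = 0.38). Of the severing enzymes, none of 7 tested probes rose and 1 fell (14.3%), with a list median of -0.57 (-0.29 under quantile normalization). The probe that fell was of the katanin-like gene KATNAL2 (-1.55, adjusted p = 0.0145, limma), whose other probe had -1.03 (adjusted p = 0.106). Of the 6 fits that leave out an array, 6 kept the MAP2 call, 4 each those of VASH1, MAP6 and the second TUBB8 probe, and 3 that of KATNAL2.

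**Figure D4:**
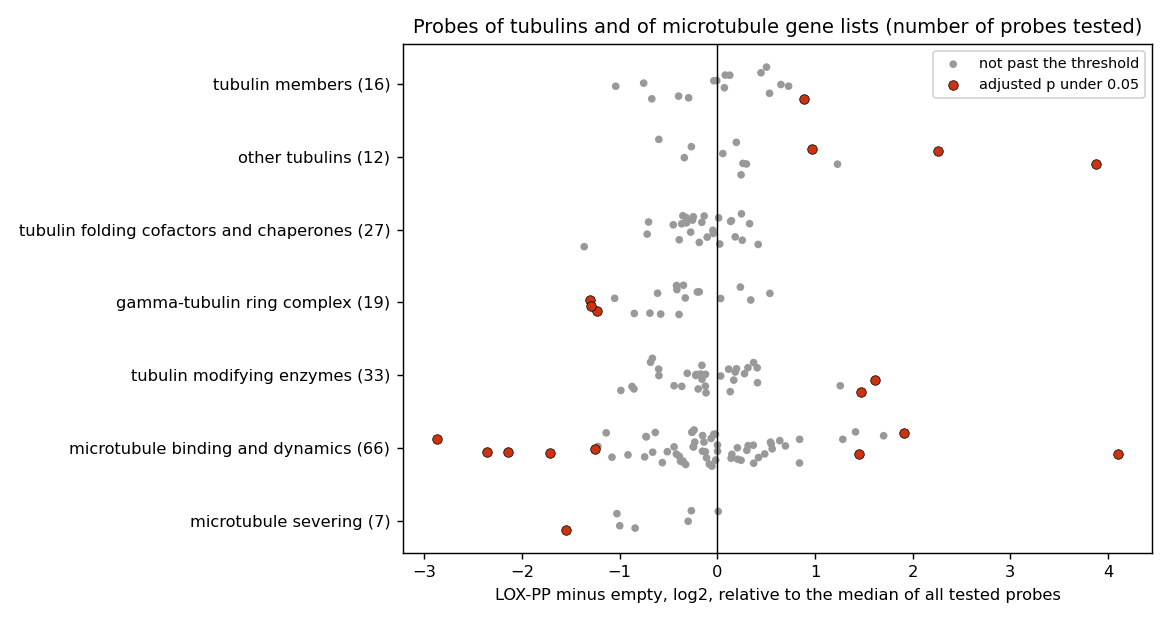
Change of each tested probe, LOX-PP minus empty on the log2 scale relative to the median of all tested probes (x axis), for the 16 tubulin probes and for 6 lists of microtubule genes, with the number of tested probes in brackets; red points passed an adjusted p under 0.05. The called probes lie on both sides, from DCLK1 at -2.36 to STMN2 at 4.11 among those above background on all arrays, and the folding list has none. The leftmost point is MAP2, whose probe was above background on only 1 of 3 A673/TR/LOX-PP arrays.

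Of the 17 called probes of these lists, 6 lie on chromosome 13 (TUBGCP3, DCLK1 and, in the other direction, TUBA3C). Over the whole of this chromosome 63 of 387 tested probes were called lower (16.3%) and 4 higher, and the median relative change was -0.77. The part that chromosome 13 as a whole played in the TUBGCP3 and DCLK1 values was not tested. None of the 10 tubulin genes lies on it.

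Markers of other cell types moved beside these values. Neuronal markers gave 1 probe higher (STMN2) and 3 lower (NEFL, MAP2 and GAP43) of 9 tested probes (44.4%, against 5.66% of all tested probes). The STMN2 and MAP2 probes are the ones already given under microtubule binding and dynamics. The mean level of the neuronal list ran from -0.78 to -0.57 on control arrays and from -1.35 to -1.24 on A673/TR/LOX-PP arrays. NEFL, a neurofilament gene, had a relative change of -3.87 (adjusted p = 0.000465, limma). Fibroblast markers gave 1 probe higher (FAP) and 2 lower (COL1A2 and LUM) of 8 (37.5%), at mean levels of 0.57 to 0.97 on control and 0.09 to 0.65 on A673/TR/LOX-PP arrays. The FAP probe was above background on 2 of 3 control arrays. The LUM probe was above background on 2 of 3 control and 1 of 3 A673/TR/LOX-PP arrays. Its call was lost under quantile normalization (adjusted p = 0.0663, limma). Epithelial, leukocyte and endothelial lists had no probe called, and the mean level of the first was from -0.31 to 0.02 over the 6 arrays. The leukocyte and endothelial lists stayed below the 75th percentile on all arrays, at mean levels from -4.00 to -2.34. The part of these differences in the TUBB2B and TUBA4A values was not tested. All 6 samples come from 1 cell line, so these lists describe genes in A673 cells and not a mixture of tissues. In bulk RNA, fewer cells that express a gene and less of its RNA per cell cannot be told apart.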

How the data were processed

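RNA of 6 samples, 3 A673/TR/empty and 3 A673/TR/LOX-PP, was measured on Agilent SurePrint G3 1-colour arrays. The authors deposited spot intensity from Feature Extraction (version 10.7, from the submitters' processing notes), corrected for background by that software, with flags. They also deposited log2 values, which matched those computed below within 0.00381 once each probe was centred on its median.

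From the deposited intensity, control and outlier spots (213 to 353 per array) were left out, spots of a probe were averaged on the log2 scale, and arrays were scaled to the 75th percentile over gene probes. The 32647 probes flagged well above background on 3 or more arrays went into limma 3.58.1 in R 4.3.3, with no block and a threshold of 0.05 on the Benjamini-Hochberg adjusted p. Replicates were separate experiments, and their number limits the precision. Accessions were named through RefSeq (28174 probes); as the array design used an earlier build, RefSeq gave names, chromosomes and the promoter windows, whose coordinates are those of GRCh38.p14. Deviations of same-numbered arrays from their group means correlated with r of 0.27, -0.39 and 0.23. These 3 values of both signs cannot settle whether the arrays are paired. The methods name no pairing, so numbers were not used as pairs.

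The tubulin genes and the lists were chosen with earlier results of these data known. All member probes are named, and from each list up to 3 called probes per direction with the smallest adjusted p, as well as LOX; neighbours, probes of a named gene that missed the threshold, TUBA3D, CCT5 and the marker genes were named after their values were seen. Lists covered folding cofactors and chaperones, other tubulins, the γ-tubulin ring complex, modifying enzymes, binding and dynamics, severing, and Ewing sarcoma, neuronal, fibroblast, epithelial, leukocyte and endothelial markers. The steps were tested on simulated data.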

Additional observations from a re-analysis of the deposited data

How the results depend on the processing

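The count of called tubulin probes, 1 as reported, was 0 without a filter on dim probes and 2 with the slide as a block. With a replicate block the count was 0, and whether the replicate numbers pair the arrays is not settled. The count ran from 0 to 2 when each array was left out in turn. The TUBA4A probe A_23_P102109 kept its call in 9 of 16 alternatives, with adjusted p from 0.0217 to 0.211, and missed it without a filter (0.139), with the replicate block (0.11) and in the 5 fits without an array other than A673/TR/LOX-PP replicate 1. Slide 2 held that array alone, so the slide block equals leaving it out.

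Some directions turned, given here as relative changes. With quantile normalization TUBA1B went from 0.54 to -0.01, TUBA1C A_24_P188071 from 0.45 to -0.077, TUBB A_23_P81912 from 0.13 to -0.10 and TUBB2A A_23_P19291 from 0.07 to -0.17. With the filter on all arrays TUBA1C A_24_P58529 came to 0.022 and TUBB3 to 0.052. With the slide block TUBA1C A_24_P58529 came to 0.14 and TUBB2A A_23_P19291 to -0.10. With normexp background correction TUBB2A A_23_P19291 came to -0.037 and TUBB4B to -0.008. Without a filter TUBB A_23_P81912 came to -0.048, TUBB2A A_23_P19291 to -0.10 and TUBB4B to -0.094. Leaving out each array gave -0.30 to 0.14 for TUBA1C A_24_P58529, -0.10 to 0.38 for TUBB2A A_23_P19291, -0.25 to 0.40 for TUBB3 and -0.085 to 0.27 for TUBB4B. The cause was not tested. The other directions held, among them under the median of probes above background, the authors' values, the methods' t-test and cyclic loess, which was chosen after seeing the data. The calls over all probes ran from 407 without control replicate 1 to 2062 without A673/TR/LOX-PP replicate 1.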
